A study of Mus musculus with 10 samples.

Results

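Expression of 10 genes of zinc, metallothionein and iron handling was examined in the liver transcriptome of MI-883-treated mice. The genes were chosen by name for their roles in metal handling, with earlier results of these data already known. The set comprises the metallothioneins *Mt1* and *Mt2*, the zinc and manganese transporters *Slc39a4*, *Slc39a14*, *Slc30a1* and *Slc30a10*, the hepcidins *Hamp* and *Hamp2*, and the iron importer *Tfrc* and exporter *Slc40a1*. They are 10 of 16647 genes in the count table, and all 10 were among the 13219 genes tested, each with at least 123 counts in every liver. RNA was sequenced from the livers of 5 control and 5 MI-883-treated males of the humanized PXR-CAR-CYP3A4/3A7 line, supplied as model 11585, with each library from another animal. All mice carry human PXR, CAR, CYP3A4 and CYP3A7 in place of the mouse counterparts. All entered the study at 10 to 15 weeks of age and were fed a high-fat diet (HFD) for 8 weeks before the treatment and throughout it. MI-883, a ligand that activates CAR and antagonizes PXR, was then given by oral gavage at 5 mg/kg 3 times per week for 4 weeks, and control mice received the vehicle of DMSO, PEG300 and corn oil on the same schedule. The comparison asks how the treatment altered the hepatic transcriptome, here the transcripts of metal handling.

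The liver stores zinc and iron and sets how much iron enters the blood. Metallothioneins are small cysteine-rich proteins that bind zinc and copper, and their genes are switched on by metals through the factor Mtf1 as well as by glucocorticoids and inflammation. Hepcidin, the peptide hormone encoded by *Hamp* and made by hepatocytes, binds the exporter ferroportin (*Slc40a1*) and causes its degradation. Its transcription responds to body iron through BMP and SMAD signalling and to inflammation through interleukin-6 and Stat3. Inside cells, iron-regulatory proteins bind short RNA hairpins, the iron-responsive elements, which stabilize the transferrin receptor transcript (*Tfrc*) and restrain translation of ferritin and ferroportin.

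Sequences of the best known controls are shown for the hepcidins, the metallothioneins and the genes with iron-responsive elements. *Hamp* lies at chr7:30942368-30944029 and *Hamp2* at chr7:30922372-30924181 on the minus strand of GRCm38, and the 250 bases before each start site (RefSeq, GRCm38.p6, at chr7:30944030-30944279 and chr7:30924182-30924431, read on the minus strand) were identical in 89.7% of aligned columns. Capitals mark matches, searched on both strands, to the core of a BMP-responsive element, GGCGCC, and to the STAT core TTCNNNGAA.
Hamp: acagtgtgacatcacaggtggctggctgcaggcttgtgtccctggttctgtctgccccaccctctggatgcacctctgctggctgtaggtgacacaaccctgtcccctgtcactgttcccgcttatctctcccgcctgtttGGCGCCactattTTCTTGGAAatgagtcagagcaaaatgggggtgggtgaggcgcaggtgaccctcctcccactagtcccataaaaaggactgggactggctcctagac
Hamp2: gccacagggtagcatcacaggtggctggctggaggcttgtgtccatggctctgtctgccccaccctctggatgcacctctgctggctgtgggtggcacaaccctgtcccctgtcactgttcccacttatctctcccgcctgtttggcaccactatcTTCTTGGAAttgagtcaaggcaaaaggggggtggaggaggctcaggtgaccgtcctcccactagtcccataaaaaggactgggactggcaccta
Each promoter holds 1 STAT match, and GGCGCC was found in the *Hamp* window and not in that of *Hamp2*. Among 32851 RefSeq promoters of the same length, 9.59% hold GGCGCC and 7.02% hold the STAT core. These matches describe letters and were not measured as binding. In their coding sequences the 2 hepcidin genes were identical in 93.6% of aligned columns.

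*Mt1* (chr8:94178883-94180327) and *Mt2* (chr8:94172618-94173567) are neighbours on the plus strand of chromosome 8, and their coding sequences were identical in 79.2% of aligned columns. The metal response element core, TGCACNC or TGCGCNC, was searched on both strands in the leader that GENCODE M21 annotates before the start codon. It is shown in capitals with 6 flanking bases as read on the plus strand, and the coordinates are those of the core.
Mt1 chr8:94179091-94179097: gagctcTGCACTCcgcccg
Mt1 chr8:94179109-94179115: gaaaagTGCGCTCggctct
Mt1 chr8:94179173-94179179: cctgctGGGTGCAaaccct
Mt1 chr8:94179187-94179193: acccttTGCGCCCggactc
Mt2 chr8:94172676-94172682: aagggcGTGTGCAggcggc
Mt2 chr8:94172695-94172701: gggggcGCGTGCAtggtgc
Mt2 chr8:94172729-94172735: agctttTGCGCTCgaccca
The annotated *Mt1* leader of 229 bases holds 4 cores and the annotated *Mt2* leader of 184 bases holds 3. Of RefSeq promoter windows cut to the same lengths, 0.152% hold at least 4 and 0.472% at least 3. These windows were taken before annotated RefSeq start sites, so the shares do not set leaders against leaders. Where transcription of *Mt1* and *Mt2* starts in these livers was not examined. The cores listed above may therefore lie upstream of the start in use, in the promoter, and are not shown to be transcribed. In the 250-base RefSeq promoter windows, with overlapping matches merged as in the leaders, *Mt1* held 1 core and *Mt2* held 3. Of the other members examined, *Slc30a1* held 1, *Slc30a10* held 2, and *Hamp* and *Hamp2* held 0. *Tfrc* held 1 in 1 of its annotated windows. That *Tfrc* window also held 1 match to GGCGCC. At least 1 such core occurs in 21.4% of all promoters of this length, at least 2 in 4.30% and at least 3 in 0.770%.

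Iron-responsive elements were searched in annotated UTRs as a 6-base CAGTGN loop closed by a paired stem with an unpaired C. The loop is in capitals, coordinates are in GRCm38, and the 4 elements of *Tfrc* lie in the 3′ UTR, the others in 5′ UTRs of GENCODE M21 transcripts.
Tfrc chr16:32631225-32631241 (+): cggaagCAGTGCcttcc
Tfrc chr16:32631604-32631620 (+): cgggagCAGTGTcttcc
Tfrc chr16:32631669-32631685 (+): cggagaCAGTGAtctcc
Tfrc chr16:32631716-32631732 (+): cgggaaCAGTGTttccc
Slc40a1 chr1:45925471-45925487 (-): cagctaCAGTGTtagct
Ftl1 chr7:45459785-45459801 (-): cttcaaCAGTGTttgaa
Fth1 chr19:9982738-9982754 (+): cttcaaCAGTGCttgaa
Such an element occurs in the 3′ UTR of 0.590% and in the 5′ UTR of 0.142% of 21877 coding genes. *Tfrc* and *Slc40a1* therefore carry the element at opposite ends of the transcript, and *Fth1* and *Ftl1*, the ferritin heavy and light chains, carry it at the same end as *Slc40a1*.

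The libraries held between 23513665 and 36221514 counts, with medians of 31734138 in control and 24581671 in MI-883-treated livers. Levels are given as CPM, the usual counts-per-million scale with library sizes adjusted by TMM, with the SD over 5 livers, and changes as log2 fold changes of MI-883-treated against control livers with their standard error from edgeR's quasi-likelihood test. P-values were adjusted over all 13219 tested genes by the Benjamini-Hochberg method, and an adjusted P under 0.05 was called a change. Hepatocyte markers dominated every library, with albumin averaging 56582 ± 4446 CPM in control livers and 50515 ± 3589 CPM after treatment, and no marker gene of any cell type was called by edgeR. The unadjusted P was under 0.05 for 2 of 5 hepatocyte markers and 3 of 5 sinusoidal endothelial markers (median log2 fold changes -0.25 and 0.32), for 1 of 4 stellate and 1 of 5 erythroid markers and for no other, and no marker passed DESeq2. Over all tested genes the share with an unadjusted P under 0.05 was 15.6%. In bulk liver, fewer cells of a type and less RNA per cell cannot be told apart.

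After treatment with MI-883, *Hamp2* was the 1 gene of the 10 that changed, and it fell to 0.262 times its control level. No other member passed the test, 9 of 10 log2 fold changes were below 0, and *Tfrc* was the one above 0. Of all tested genes 1.03% were called, 0.265% lower and 0.764% higher, and over all tested genes the log2 fold change had a median of 0.00451. By DESeq2, 2 of the 10 passed, *Hamp2* and *Tfrc*, against 3.5% of genes. The unadjusted P of edgeR was under 0.05 for 4 of the 10, namely *Mt1*, *Hamp*, *Hamp2* and *Tfrc*, against 15.6% of all tested genes. None of the 10 had groups that did not overlap, a pattern seen in 3.98% of genes. With 10 genes these shares describe the set and test nothing.

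**Figure D1:**
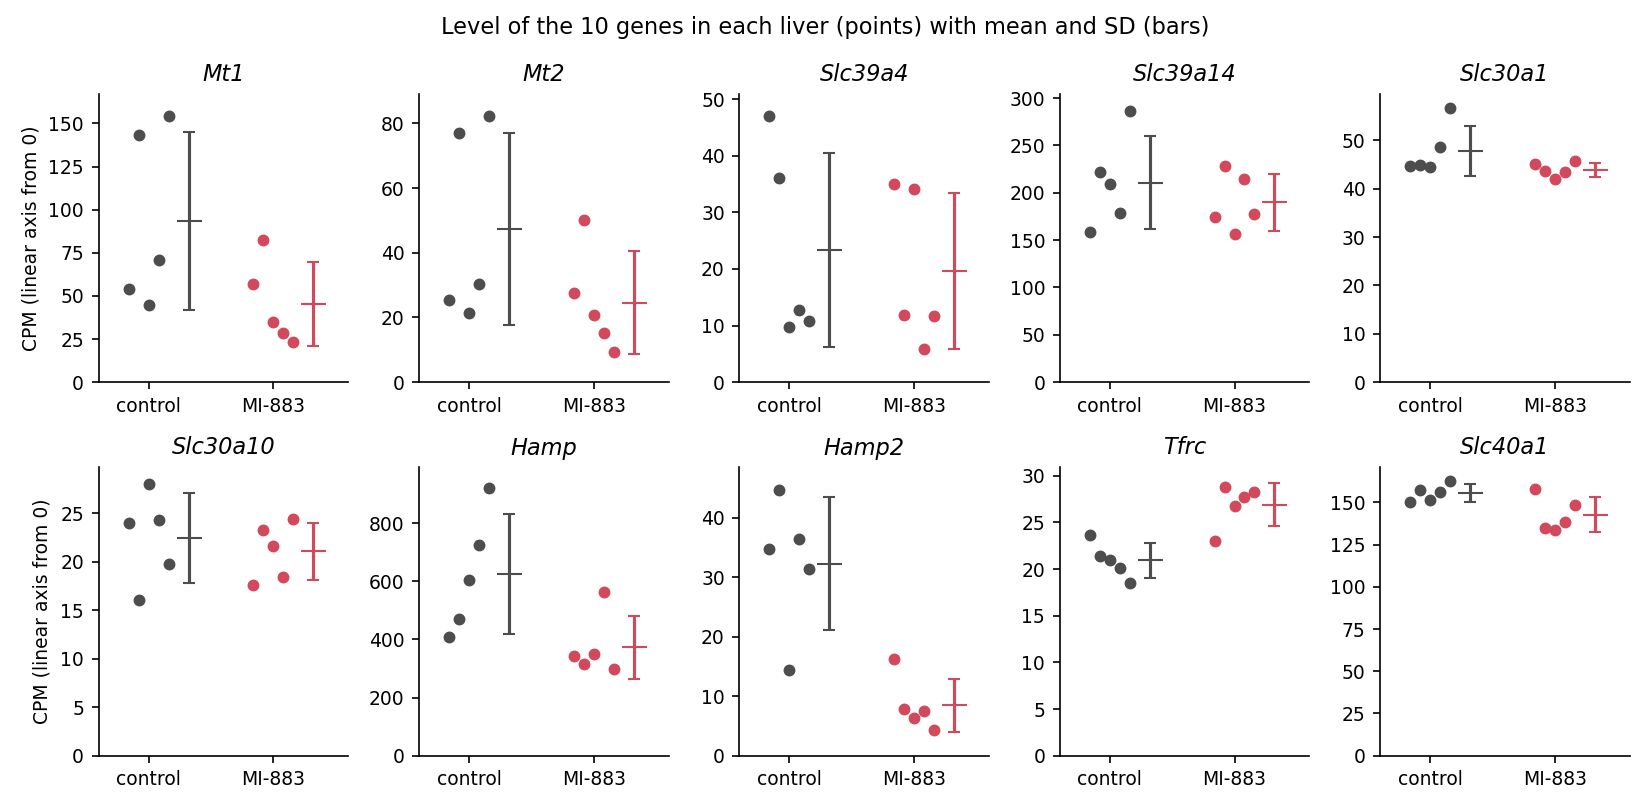
Level of each of the 10 genes in CPM on linear axes that start at 0, with 1 point per liver in replicate order and the mean with SD beside the points, control in grey and MI-883 in red. In *Hamp2*, 4 of 5 MI-883-treated livers sit below the lowest control liver, and in *Tfrc* 4 of 5 sit above the highest control liver.

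Per kilobase of transcript, *Hamp* was by far the most abundant, at 1525 RPKM in control livers, computed from the CPM and the length of 1 GENCODE transcript per gene. Then followed *Mt1* (170.0 RPKM), *Slc39a14* (101 RPKM), *Mt2* (92.6 RPKM), *Hamp2* (76.9 RPKM) and *Slc40a1* (46.2 RPKM). The lower group held *Slc39a4* (11.3 RPKM), *Slc30a1* (9.13 RPKM), *Tfrc* (4.28 RPKM) and *Slc30a10* (3.84 RPKM). Neighbours in this order were clear of the spread between control livers at 3 places, below *Hamp*, between *Slc40a1* and *Slc39a4*, and between *Slc30a1* and *Tfrc*. All other neighbours overlapped in range. At the last of these places *Slc39a4*, ranked higher, still reached down to 4.75 RPKM, below the highest control liver for *Tfrc* (4.83 RPKM).

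*Hamp2*, the mouse copy of the hepcidin gene whose peptide is not known to share the iron-regulating role, measured 34.7, 44.6, 14.4, 36.4 and 31.4 CPM in control livers 1 to 5. The MI-883-treated livers 1 to 5 held 16.2, 7.83, 6.29, 7.53 and 4.36 CPM. All 5 treated livers were below the control median, and the groups overlapped only through control liver 3 and MI-883-treated liver 1. The mean went from 32.3 ± 11.1 to 8.44 ± 4.53 CPM, which is a log2 fold change of -1.93 (SE 0.332, edgeR adjusted P = 0.0150, DESeq2 adjusted P = 0.000345). An exact permutation test (two-sided, 5 livers against 5, smallest possible P 0.00794) gave P = 0.0159. The call held in all 10 fits that left out 1 liver, with log2 fold changes between -2.32 and -1.77 and edgeR adjusted P between 0.00157 and 0.0487.

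*Hamp*, which encodes the iron-regulating hepcidin, stood at 408, 469.6, 603, 724 and 922 CPM in control livers 1 to 5 and 344, 314, 348, 563 and 296 CPM in the treated ones. The 4 treated livers other than number 4 were below the lowest control liver. The log2 fold change was -0.74 (SE 0.223) and did not pass the test (edgeR adjusted P = 0.147, DESeq2 adjusted P = 0.128), although the unadjusted exact permutation test gave P = 0.0397. The 5 hepatocyte markers all had log2 fold changes below 0 as well (median -0.25, 0 called by edgeR or DESeq2, 2 with an unadjusted P under 0.05), at a summed level of 73145 to 84871 CPM in control livers against 61565 to 76265 CPM after treatment. Their part in the hepcidin levels was not tested. Leaving out single livers moved *Hamp* between -0.94 and -0.56, and no such fit called it. Without MI-883-treated liver 4 it was -0.94 (edgeR adjusted P = 0.0550).

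Whether the hepcidin copies moved alike was examined as the ratio of their levels within each liver, a comparison chosen after their values were seen. The log2 ratio of *Hamp2* to *Hamp* was -4.31 ± 0.848 in control and -5.56 ± 0.732 in MI-883-treated livers, a difference of -1.26 (exact two-sided permutation test, P = 0.0476, adjusted over the 2 pairs examined P = 0.0952). The ranges overlapped, at -5.39 to -3.40 in control and -6.22 to -4.41 in treated livers. No stretch of 100 bases of any of the 10 transcripts occurs in a transcript of another gene. A read of at least that length can therefore match only 1 of the copies exactly. Reads placed with mismatches were not examined. *Hamp* averaged 625 CPM and *Hamp2* 32.3 CPM in control livers, and 373 and 8.44 CPM in treated ones.

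**Figure D2:**
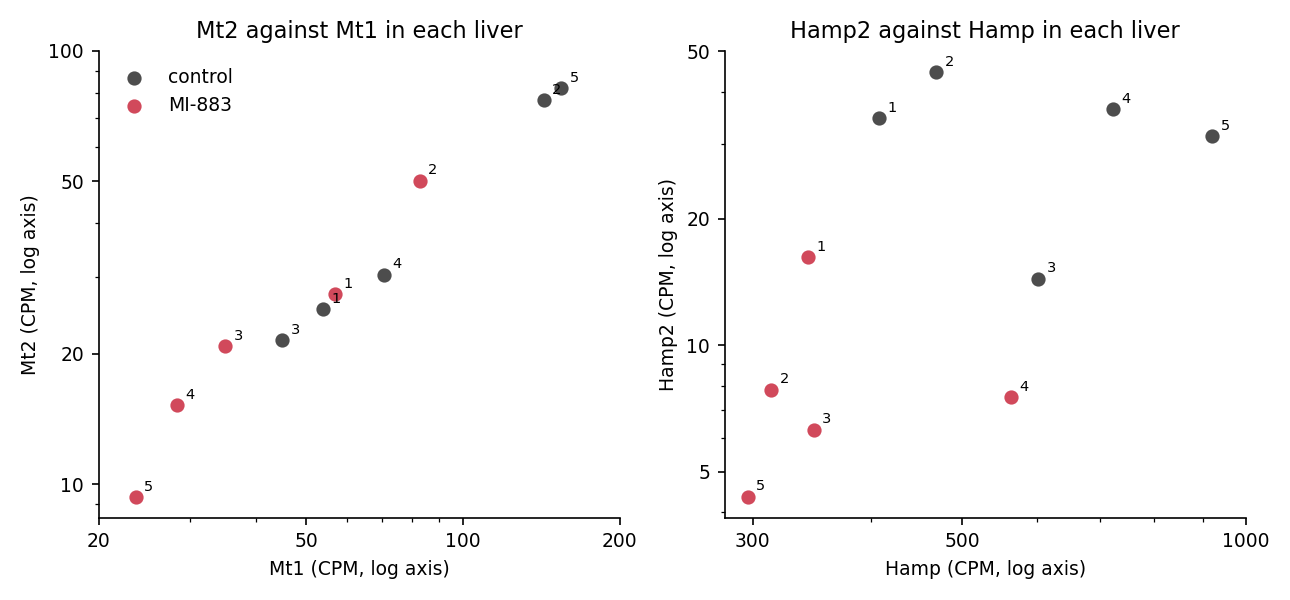
Level of *Mt2* against *Mt1* (left) and of *Hamp2* against *Hamp* (right) in CPM on log axes, 1 point per liver numbered by replicate, control in grey and MI-883 in red. The metallothioneins lie along 1 line through both groups, whereas the hepcidins scatter and the treated livers sit low on the *Hamp2* axis.

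*Tfrc* (chr16:32608896-32632794), the transferrin receptor that takes up iron-loaded transferrin, measured 23.6, 21.4, 20.97, 20.2 and 18.6 CPM in control livers 1 to 5 and 22.97, 28.8, 26.8, 27.7 and 28.3 CPM in the treated ones. All 5 treated livers were above the control median, and only treated liver 1 lay within the control range. The mean was 20.9 ± 1.85 CPM in control and 26.9 ± 2.32 CPM in treated livers, with a log2 fold change of 0.36 (SE 0.0819). It narrowly missed the threshold in edgeR (adjusted P = 0.0581) and passed it in DESeq2 (adjusted P = 0.00652), and the exact permutation test gave an unadjusted P = 0.0159. The edgeR call depended on the filter. The authors' methods ask for a minimum of 60 counts in all samples, which reads more plainly as 60 in every liver. It was taken here as a sum over the livers. With 60 counts in every liver edgeR called *Tfrc* (log2 fold change 0.37, adjusted P = 0.0459), as did DESeq2 (adjusted P = 0.00310). The call also turned on single libraries: edgeR called *Tfrc* without control liver 1 (log2 fold change 0.41, adjusted P = 0.0330) and without MI-883-treated liver 1 (log2 fold change 0.41, adjusted P = 0.0234). Erythroid cells also carry much *Tfrc*, and their 5 tested markers all had log2 fold changes below 0 (median -0.50, 0 of 5 called by either tool, 1 with an unadjusted P under 0.05), with a summed level of 131 to 196 CPM in control livers against 91.2 to 173 CPM after treatment. Their part in the *Tfrc* level was not tested.

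*Slc40a1* (chr1:45908070-45926532), which encodes the iron exporter ferroportin, was nearly constant among control livers at 150.1, 157, 151, 156 and 163 CPM. In MI-883-treated livers it measured 158, 135, 134, 139 and 149 CPM, with 4 of 5 below the lowest control liver and liver 1 within the control range. The mean went from 156 ± 5.13 to 143 ± 10.3 CPM, and the log2 fold change of -0.12 (SE 0.0655) did not pass the test (edgeR adjusted P = 0.379, exact permutation test without adjustment P = 0.0476). Kupffer cells are another site of ferroportin in liver, and 0 of 6 of their markers were called by edgeR or DESeq2, 0 had an unadjusted P under 0.05, the median log2 fold change was 0.02 and their summed level was 182 to 272 CPM in control livers against 141 to 320.1 CPM after treatment. Their part in the *Slc40a1* level was not tested.

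*Mt1* varied strongly within both groups, at 53.8, 143, 44.95, 70.6 and 154 CPM in control livers 1 to 5 and 56.8, 82.6, 35.02, 28.3 and 23.5 CPM in the treated ones. Control livers 2 and 5 were the highest of all, and 3 treated livers were lower than any control liver. The means were 93.3 ± 51.5 and 45.3 ± 24.5 CPM and the log2 fold change -1.04 (SE 0.396), which did not pass the test (edgeR adjusted P = 0.232, DESeq2 adjusted P = 0.271, exact permutation test without adjustment P = 0.0794). With single livers left out it lay between -1.37 and -0.79 and was called in no fit.

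*Mt2* followed the same livers, at 25.4, 77.1, 21.5, 30.5 and 82.1 CPM in control livers 1 to 5 and 27.4, 50.2, 20.8, 15.2 and 9.33 CPM in the treated ones. Its log2 fold change of -0.94 (SE 0.458) did not pass the test (edgeR adjusted P = 0.341, DESeq2 adjusted P = 0.410, exact permutation test without adjustment P = 0.135). The log2 ratio of *Mt2* to *Mt1* was -1.03 ± 0.133 in control and -0.95 ± 0.252 in treated livers, a difference of 0.0826 (exact two-sided permutation test, P = 0.50 before and after adjustment over the 2 pairs). The levels of both genes moved together from liver to liver, and neither separated the groups.

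Among zinc transporters, *Slc39a4* (chr15:76612383-76618506), best known as the intestinal zinc importer ZIP4, was high in some livers and low in others within both groups. It measured 46.96, 36.1, 9.81, 12.7 and 10.8 CPM in control livers 1 to 5 and 35.04, 11.9, 34.1, 5.83 and 11.7 CPM in the treated ones. The log2 fold change was -0.24 (SE 0.527, edgeR adjusted P = 0.855) and its sign was not stable, being 0.18 without control liver 1. Of 4 enterocyte markers, 3 were in the count table and 1 was tested, and their summed level was at most 0.479 CPM in any liver. The part of such cells in the *Slc39a4* level was not tested.

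*Slc39a14* (ZIP14, chr14:70303467-70351452), an importer of zinc, manganese and non-transferrin iron, measured 159, 222, 209, 178 and 287 CPM in control livers 1 to 5 and 174, 229, 157, 214 and 177 CPM in the treated ones. The ranges overlapped widely and the log2 fold change was -0.15 (SE 0.150, edgeR adjusted P = 0.665). *Slc30a1* (ZnT1, chr1:191906697-191913248), the zinc exporter of the plasma membrane, measured 44.7, 44.9, 44.5, 48.6 and 56.7 CPM in control livers 1 to 5 and 45.02, 43.6, 42.05, 43.4 and 45.7 CPM in the treated ones. The treated livers lay closer together (43.97 ± 1.45 CPM) than the control livers (47.9 ± 5.20 CPM), with a log2 fold change of -0.12 (SE 0.0751, edgeR adjusted P = 0.451). *Slc30a10* (ZnT10, chr1:185454848-185468762), which exports manganese, measured 24.1, 16.03, 28.04, 24.3 and 19.8 CPM in control livers and 17.6, 23.3, 21.7, 18.4 and 24.4 CPM in the treated ones, overlapping widely, with a log2 fold change of -0.09 (SE 0.140, edgeR adjusted P = 0.786). No fit called any of these 4 transporters. *Slc30a1* overlaps the annotated gene 1700034H15Rik and *Slc30a10* overlaps Gm2061, both not analysed here, and since the strand setting of the counting is not given, reads of the overlaps cannot be assigned.

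**Figure D3:**
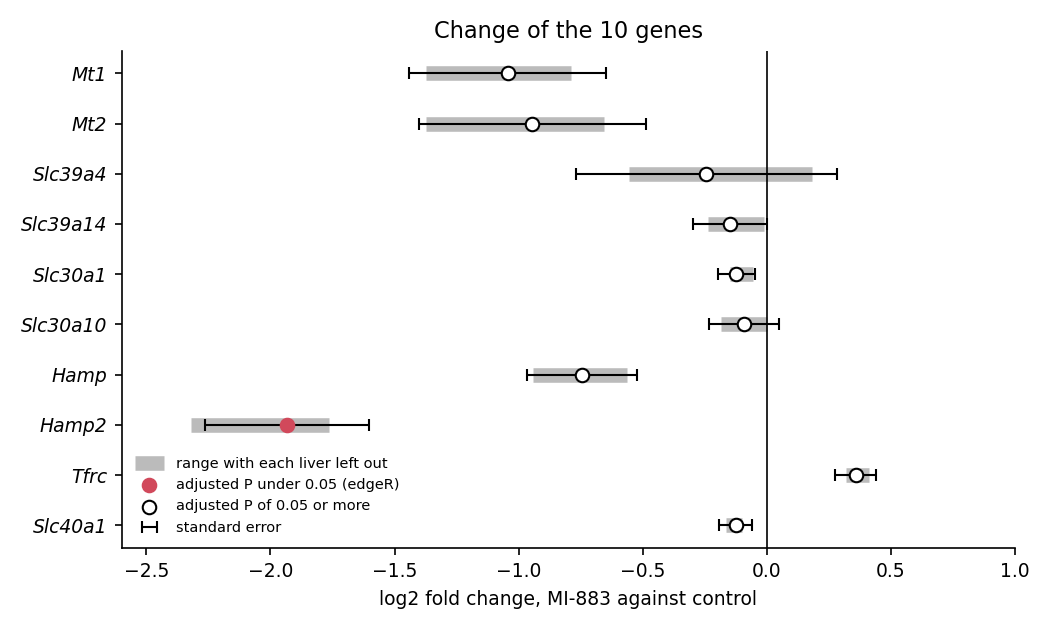
Log2 fold change of MI-883-treated against control livers for the 10 genes (points) with the standard error (bars) and the range with each liver left out in turn (grey bands), filled where the edgeR adjusted P is under 0.05. *Hamp2* is the 1 filled point, and the bands of *Slc39a4* and, barely, *Slc30a10* reach past 0.

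Beyond the 10 genes, the pathways around them were described by lists of other zinc, iron and hepcidin genes. Of 23 zinc handling genes, 18 were tested and 0 were called by edgeR, with a median log2 fold change of -0.0047. The unadjusted P was under 0.05 for 2, against 15.6% of all tested genes, and DESeq2 called 1, against 3.5%. The 1 gene was *Slc39a11* (ZIP11), a zinc transporter, at 39.02, 34.03, 35.6, 33.6 and 30.8 CPM in control and 43.8, 41.4, 42.2, 40.3 and 46.1 CPM in treated livers. Its groups did not overlap, and the log2 fold change was 0.31 (SE 0.0720, edgeR adjusted P = 0.0680, DESeq2 adjusted P = 0.00601). Leaving out control liver 1 brought it past the edgeR threshold (adjusted P = 0.0327). *Mtf1*, the zinc-sensing factor that drives the metallothionein genes, had a log2 fold change of -0.09 (SE 0.105, edgeR adjusted P = 0.693), and *Slc39a8* (ZIP8), the close relative of *Slc39a14*, one of -0.19 (SE 0.0980, edgeR adjusted P = 0.364).

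Of 23 genes of iron uptake, storage and transport, 22 were tested, with a median log2 fold change of 0.05. By edgeR 1 rose and 0 fell and likewise by DESeq2, against 1.03% of all tested genes called by edgeR and 3.5% by DESeq2. The unadjusted P was under 0.05 for 4, against 15.6% of all tested genes. Named after their values were seen, these were *Slc25a37*, *Aco1* (0.22), *Hpx* (-0.23) and *Slc11a2* (0.25), with log2 fold changes in brackets. The edgeR adjusted P was 0.204, 0.277 and 0.319 for the latter 3. The gene that rose was *Slc25a37*, which encodes mitoferrin-1 and carries iron into mitochondria. It measured 51.4, 47.6, 58.3, 55.6 and 51.5 CPM in control livers and 60.95, 65.1, 74.9, 71.4 and 80.5 CPM in the treated ones without overlap, which is a log2 fold change of 0.42 (SE 0.0850, edgeR adjusted P = 0.0348, DESeq2 adjusted P = 0.000800). The call rested on nearly all livers: it was lost when control liver 1, 2, 4 or 5 or treated liver 2, 3, 4 or 5 was left out, with edgeR adjusted P of up to 0.0953 and log2 fold changes between 0.37 and 0.47. Mitoferrin-1 is abundant in erythroid precursors, whose markers had log2 fold changes below 0 as given for *Tfrc*, and the part of these cells in the *Slc25a37* level was not tested. The carriers and stores of iron did not pass the test. Transferrin (*Trf*) had a log2 fold change of -0.12 (SE 0.0970, edgeR adjusted P = 0.597) and the second transferrin receptor *Tfr2*, an iron sensor of hepatocytes, one of -0.08 (SE 0.121, edgeR adjusted P = 0.772). The ferritin chains *Fth1* and *Ftl1*, which share the hairpin with *Slc40a1*, had log2 fold changes of -0.02 (SE 0.102) and 0.05 (SE 0.0836), with edgeR adjusted P of 0.935 and 0.819. Ceruloplasmin (*Cp*), the ferroxidase of plasma, had a log2 fold change of 0.06 (SE 0.0889, edgeR adjusted P = 0.782), and *Hmox1*, which frees iron from haem, one of 0.17 (SE 0.121, edgeR adjusted P = 0.524).

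The 20 genes that act on hepcidin transcription were all tested, and 0 were called by edgeR or DESeq2, with a median log2 fold change of -0.02. The unadjusted P was under 0.05 for 5, against 15.6% of all tested genes. The upstream sensor *Hfe* had a log2 fold change of 0.09 (SE 0.0601) and *Hjv*, the BMP co-receptor hemojuvelin, one of -0.01 (SE 0.0645), with edgeR adjusted P of 0.474 and 0.977. *Bmp6*, the iron-responsive ligand made by the sinusoidal endothelium, had a log2 fold change of 0.16 (SE 0.196, edgeR adjusted P = 0.721), while the summed endothelial markers lay at 90.1 to 126 CPM in control livers against 96.9 to 143 CPM after treatment and their part in the *Bmp6* level was not tested. The pathway targets *Smad7* and *Id1* had log2 fold changes of -0.30 (SE 0.120) and -0.26 (SE 0.221), with edgeR adjusted P of 0.246 and 0.601. The 5 genes with an unadjusted P under 0.05, named after their values were seen, were *Smad7*, *Atoh8*, *Fgl1*, *Neo1* and *Acvr1*. *Atoh8*, another target of the pathway, had a log2 fold change of -0.37 (SE 0.116, edgeR adjusted P = 0.162), with 4 of 5 treated livers below the lowest control liver, whereas the target *Smad6* was at -0.06 (SE 0.167, edgeR adjusted P = 0.893). *Fgl1*, a secreted hepatocyte protein that restrains hepcidin, was at -0.71 (SE 0.298, edgeR adjusted P = 0.277). *Neo1* and the BMP receptor *Acvr1* were above 0, at 0.23 (SE 0.0727) and 0.24 (SE 0.0925), with edgeR adjusted P of 0.161 and 0.2301. *Tmprss6*, the protease that restrains the pathway by cleaving hemojuvelin, had a log2 fold change of -0.09 (SE 0.0824, edgeR adjusted P = 0.633). Of the interleukin-6 and acute phase genes, 0 of 13 were called by edgeR or DESeq2, with a median log2 fold change of -0.02. Among them 3 had an unadjusted P under 0.05, against 15.6% of all tested genes.

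**Figure D4:**
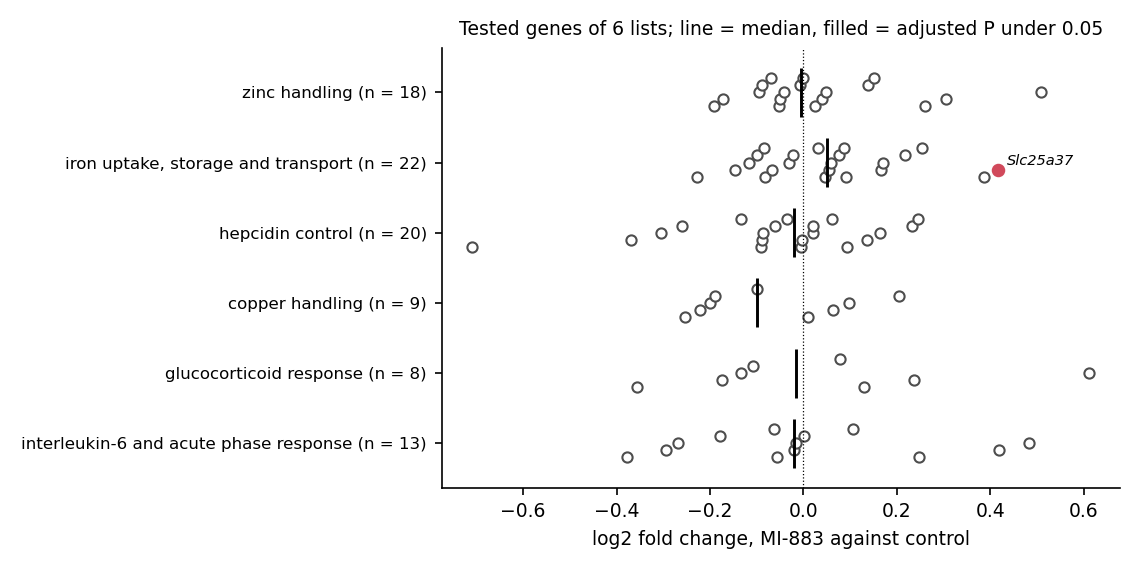
Log2 fold change of MI-883-treated against control livers for the tested genes of 6 lists, 1 point per gene spread vertically only for legibility, with a line at each median and filled points at an edgeR adjusted P under 0.05. *Slc25a37* is the 1 filled point, and the medians lie between -0.10 and 0.05.

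For the 5 members that varied by an SD of at least 0.5 in log2 CPM over the 10 livers, the genes of most similar pattern were sought among 11612 genes of at least 1 CPM. Likeness was the mean absolute difference of log2 CPM over the 10 livers after each gene's mean was subtracted, a description that uses the treatment groups and the spread within them alike. The nearest gene to *Mt1* was *Mt2* at 0.158, followed by the fatty acid hydroxylases *Cyp4a14* (0.285) and *Cyp4a10* (0.309). *Mt2* was nearest to *Mt1*, then to *Cyp4a14* (0.353) and *Eif4ebp3* (0.409). *Slc39a4* was nearest to *Tmem45b* (0.273), *Ubd* (0.274) and the defensin gene *Defb1* (0.283). *Hamp* was nearest to *Ang* (0.170), *Agxt* (0.210) and *Rnase4* (0.213), which include the neighbouring ribonuclease genes *Ang* and *Rnase4*. Of these, *Rnase4* was called by edgeR (log2 fold change -0.79, adjusted P = 0.0282). *Ang* (-0.93, edgeR adjusted P = 0.0703) and *Agxt* (-0.47, edgeR adjusted P = 0.175) were not. The genes nearest to *Hamp2* were farther off, with *Cyp4a14*, *Cyp2c40* and the adipsin gene *Cfd* differing by 0.564, 0.569 and 0.571. The measure is not scaled to a gene's spread, and *Hamp2* had the largest SD of the 5 members (1.22). Of its 3 nearest genes *Cfd* alone was called by edgeR (log2 fold change -2.25, adjusted P = 0.00354).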

How the data were processed

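The submitters' processing notes name fastp 0.23.0, featureCounts and mm10. The authors aligned reads with STAR, counted them on genes and deposited raw counts per gene without normalization. The library kit was directional, but the versions of STAR and featureCounts, the annotation and the strand setting of the counting are not given in the sources used here. Livers were grouped by the treatment in their labels. Of 16647 genes, 16644 were matched by Entrez number to RefSeq symbols. Genes whose counts over the 10 livers summed to 60 or more were compared by edgeR 4.0.16 in R 4.3.3 (TMM, quasi-likelihood test, condition as sole term, Benjamini-Hochberg over 13219 genes, threshold 0.05). The authors' methods ask for a minimum of 60 counts in all samples, which reads more plainly as every sample than as the sum used here. That filter was run as an alternative and decides whether edgeR calls *Tfrc*. The standard error is the log2 fold change divided by the square root of F. The log2 CPM of the permutation tests and ratios used a prior count of 0.5. Each library held 23513665 to 36221514 counts, and whether this depth limited precision was not tested. A floor of 3 counts covers counting error only.

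The members and lists were chosen with earlier results of these data known. Named genes are the members, list genes that were called or whose groups did not overlap, 14 well known partners and the 3 genes most like a variable member. Alternatives were DESeq2 1.42.0, other normalizations and filters, a replicate block, a covariate parting replicates 1 and 2 from 3 to 5, and leaving out each liver. On simulated data of 13159 genes for this comparison, edgeR recovered 95.0% of changed genes with 4.04% false calls and DESeq2 96.5% with 15.0%. Whether these shares apply to the genes named here, with log2 fold changes such as 0.36 for *Tfrc* and -0.12 for *Slc40a1*, was not tested. Protein sequences were not used here. A gene left out of the lists is not reported here.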

Additional observations from a re-analysis of the deposited data

Results flagged for a closer look

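*Hamp* in MI-883-treated liver 4 stood apart from the other livers of its group, at 563 CPM against 348 CPM in the nearest. *Slc39a8* did so in MI-883-treated liver 5, at 24.1 CPM against 19.6 CPM in the nearest. These were 2 of 52 groups examined, where chance alone would flag about 2.6.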

How the results depend on the processing

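*Hamp2* kept its direction and its call under every alternative run. Of the 10 genes, 1 was called in the reported fit and 2 (*Hamp2* and *Tfrc*) with DESeq2, with DESeq2 on genes of 60 counts in every sample and with edgeR on those genes, and 1 to 2 with each liver left out. *Tfrc* was past the threshold at log2 fold changes of 0.36 (DESeq2, adjusted P = 0.00652), 0.37 (DESeq2 on the filtered genes, adjusted P = 0.00310) and 0.37 (edgeR on them, adjusted P = 0.0459), with 0.32 to 0.41 over left-out livers. Zinc handling genes went from 0 called to 1 under both DESeq2 fits and 0 to 1 with livers left out. Iron genes went from 1 to 2 (*Slc25a37* and *Aco1*) under DESeq2 on the filtered genes and to 0 to 1 with livers left out, while hepcidin control stayed at 0 in all. *Slc39a4* reversed to 0.021 with a covariate parting replicates 1 and 2 from 3 to 5 and ranged from -0.56 to 0.18 with livers left out. *Slc30a10* ranged from -0.19 to 0.000497, reversing without control liver 3. The cause of these changes was not tested. All other directions and calls of the 10 genes were kept.

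Livers of the same replicate number did not deviate together (correlations of -0.12 to 0.35), and none correlated best with its own number. With the number as a replicate block, *Hamp2* was called at -1.97 (adjusted P = 0.00689) and *Tfrc* was not at 0.36 (adjusted P = 0.129), so that 1 member was called. Each member had at least 123 counts in every liver, and whether depth limited its call was not tested. The standard errors of *Mt1* and *Mt2*, 0.396 and 0.458, bound what could be called for them.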

Other observations

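Copper, which metallothioneins also bind, was described by 9 genes, all tested. Of these, 0 were called by edgeR or DESeq2, with a median log2 fold change of -0.10, and 2 had an unadjusted P under 0.05, against 15.6% of all tested genes. The glucocorticoid response, another input to the metallothionein genes, was described by 8 genes, of which 0 were called by edgeR or DESeq2 and 0 had an unadjusted P under 0.05. Their median log2 fold change was -0.02, and their summed level varied widely within groups, at 521 to 1514 CPM in control livers against 764 to 1489.9 CPM after treatment.

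Markers of stellate cells summed to 193 to 293 CPM in control livers against 206 to 342 CPM after treatment, and those of bile duct cells to 1.67 to 3.99 CPM in control livers against 1.81 to 6.19 CPM after treatment. Among hepatocyte markers, *Ttr* alone had groups that did not overlap, with a log2 fold change of -0.25 (SE 0.0992, edgeR adjusted P = 0.257), and all 5 hepatocyte markers had log2 fold changes below 0 (median -0.25). Of pancreatic acinar markers, *Cela1* averaged 18.4 ± 3.89 CPM in control livers and 19.05 ± 4.92 CPM after treatment and *Cpa1* was at 0 in all control livers.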
